A study of Mus musculus with 3 samples.

Results

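The mouse genes with symbols from Zfp900 to Zfp999 were examined in mouse ES cells with knockdown of NUP153, a nucleoporin of the nuclear pore basket. Members were all genes of the deposited counts whose symbol is Zfp9 followed by any pair of digits. There were 33 such genes of 24421, and their numbers run from Zfp930 to Zfp964. RNA-Seq was carried out on 3 libraries, a control library with scramble shRNA, a NUP153 KD-1 library with shRNA-1 and a NUP153 KD-2 library with shRNA-2. All of them came from the undifferentiated EL 16.7 ES line, which is female, of the background F2:129S1/CastEiJx 129S1 and labelled wild type. The cells of each library were grown with LIF and serum on γ-irradiated feeder fibroblasts from Tg(DR4)1Jae/J mice, transduced with lentivirus in the presence of Polybrene and selected with puromycin. The libraries therefore hold pools of transduced cells, and they may hold RNA of the feeder cells. There was 1 library per condition, so that no value below has a replicate.

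Most mouse genes of this kind encode KRAB zinc finger proteins. In these proteins an array of C2H2 zinc fingers binds DNA, and the KRAB domain at the other end recruits TRIM28 (KAP1), which brings in the histone methyltransferase SETDB1 and HP1 proteins. In ES cells this machinery is best known for silencing transposable elements and for keeping DNA methylation at imprinted regions. The genes arose by repeated duplication and stand in clusters, so that close copies share long stretches of sequence.

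Of the 33 genes, 32 have a coding model in the GENCODE M21 annotation of GRCm38, the mm10 assembly, and Zfp939 is a transcribed unprocessed pseudogene. A pattern of the KRAB A box was found in 30 of the predicted proteins, and not in those of Zfp956 and Zfp957. C2H2 motifs were found in 30 of them, with a median of 11 motifs per protein and the most, 18, in Zfp945. No motif was found in the annotated proteins of Zfp935 and Zfp957. The genes lie on 12 chromosomes, with 10 on chromosome 17, 5 each on chromosomes 7 and 8, and 3 on chromosome 13. Of the 10 on chromosome 17, Zfp948, Zfp942, Zfp943, Zfp947, Zfp944, Zfp946 and Zfp945 stand in this order at chr17:21567008-22867134.

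Since the reads were 50 bases long and duplicated genes can share them, the share of each gene's 50-base windows that also occurs in transcripts of genes at other places was computed. This share was under 5% in 21 genes and 5% or more in 12 genes. It was highest in Zfp960, at 84.5%, with Zfp97 as the closest gene. Zfp932 shared 45.2% of its windows, most of them with Gm15446, its paralogue, and both are known for repressing endogenous retroviruses in ES cells. In Zfp934 the share was 41.6% with Zfp808 as the closest gene, and in Zfp937 it was 31.5% with Zfp442 as the closest gene. Reads of these genes could be lost or assigned to the copy, and their counts are therefore uncertain. One shared stretch of 50 coding bases is shown for each of the first pairs, taken from the GENCODE M21 transcripts, because such stretches set how far the reads can separate the genes. Capitals mark the codons of TGEKP, the sequence of the short linker peptide found between neighbouring zinc fingers. In the Zfp960 stretch no histidine codon stands before these codons, so a C2H2 finger does not end there.
Zfp960 and Zfp97: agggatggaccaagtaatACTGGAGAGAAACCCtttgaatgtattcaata
Zfp932 and Gm15446: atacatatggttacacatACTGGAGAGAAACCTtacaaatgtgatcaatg
A read that lies within either stretch cannot be told apart between the genes of its pair.

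The start regions of the genes were compared in the RefSeq table of promoters on GRCm38, which has an entry for 30 of the 33 genes. The 250 bases before each start were searched for 8 words on both strands, each window was counted once per word, and matches of different words were allowed to overlap. The words were chosen after matches had been seen, and a match describes the letters only. CCAAT was found in 20 of 30 windows (66.67%), compared to 46.91% of the windows of 243 other numbered Zfp genes and 39.75% of the windows of 12286 tested genes. GGGCGG was found in 9 windows of 30, compared to 46.5% of the other Zfp genes and 59.37% of all. TATAAA was in 0 windows of these genes, in 9.465% of the other Zfp genes and in 8.88% of all. CACGTG was in 6 windows of 30 (compared to 6.173% of the other Zfp genes and 9.45% of all), those of Zfp933, Zfp942, Zfp943, Zfp944, Zfp946 and Zfp947, of which all but Zfp933 lie in the cluster on chromosome 17. These windows are not independent, since those of Zfp942 and Zfp943 overlap and hold the same match, and the match of Zfp944 lies in a run that is identical to that of Zfp942. CCGGAAG was in 5 windows (16.67%, compared to 18.52% and 13.45%). TGACGTCA was found only in the window of Zfp953 (4.115% of the other Zfp genes and 2.824% of all). AAGATGGCG and TCTCGCGA were in 0 windows of the 30, in 1.235% and 1.646% of the other Zfp genes, and in 1.213% and 1.864% of all.

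Zfp942 and Zfp943 are transcribed away from each other on chromosome 17, and their RefSeq starts have 94 bases between them. The window of Zfp942 shares an identical run of 157 bases with the window of Zfp944, which in turn starts next to Zfp758 on the other strand. The part of this run that lies between the starts of Zfp942 and Zfp943 is 69 bases long, at chr17:21962490-21962558. The same bases stand before Zfp944 at chr17:22361401-22361469, and both are given on the minus strand. This part is shown because it belongs to the start region that Zfp942 and Zfp944 share, and capitals mark CACGTG.
Zfp942 and Zfp944: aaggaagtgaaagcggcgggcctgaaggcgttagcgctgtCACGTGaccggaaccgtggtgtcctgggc
The start regions of Zfp936, the member with the highest level, and of Zfp951, Zfp953 and Zfp945, which are among the lowest in KD-2, are shown with all matches of the 8 words on either strand in capitals. The stretches lie at chr7:43177438-43177587 on the plus strand, and at chr5:104860071-104860220, chr13:67360606-67360670 and chr17:22867135-22867284 on the minus strand. Between them and the RefSeq starts, 2, 43, 33 and 0 bases were left out, in this order. The Zfp936 stretch lies within its GENCODE gene, at chr7:43114229-43192109.
Zfp936: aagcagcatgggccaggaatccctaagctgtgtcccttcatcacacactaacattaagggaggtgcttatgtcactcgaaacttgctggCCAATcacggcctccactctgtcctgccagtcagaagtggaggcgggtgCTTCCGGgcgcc
Zfp951: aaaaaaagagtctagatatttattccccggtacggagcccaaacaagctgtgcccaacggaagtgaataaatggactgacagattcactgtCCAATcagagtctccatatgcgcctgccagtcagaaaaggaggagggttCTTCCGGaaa
Zfp953: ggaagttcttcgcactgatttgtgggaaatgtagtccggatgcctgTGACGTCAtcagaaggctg
Zfp945: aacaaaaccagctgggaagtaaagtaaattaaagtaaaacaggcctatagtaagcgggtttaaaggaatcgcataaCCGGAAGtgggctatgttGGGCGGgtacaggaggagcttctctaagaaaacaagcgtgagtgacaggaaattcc
Zfp936 and Zfp951 both carry CCAAT and, closer to the start, CTTCCGG, the reverse complement of CCGGAAG.

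The libraries held 72344726 (control), 85258834 (KD-1) and 69839336 (KD-2) reads on genes. Nup153, the targeted gene, had 27870, 16451 and 11126 reads, or -0.99 (KD-1) and -1.43 (KD-2) as log2 fold change. Fold changes were computed from reads scaled to the upper quartile of each library, with 0.5 reads added, over the 16670 genes whose mean was 10 reads or more. The intervals given are 95% exact intervals of the ratio of reads, and they cover counting error only. A gene was taken as past the fold if its fold change was above 1.5 (0.585 on the log2 scale), without any test, since each comparison is between single libraries. In bulk RNA, fewer cells of a type and less RNA per cell cannot be told apart. Markers of fibroblasts and of ES cells were read in every library. All 16 fibroblast markers were lower in KD-1 than in control and all 16 were higher in KD-2, and their summed scaled reads stood at 0.514 and 1.91 times control, and 0 of them were at 0 reads in a library. The summed reads of 12 ES cell markers stood at 1.08 times control in KD-1 and 0.729 times in KD-2, and those of the 33 Zfp genes at 1.09 and 0.724 times. Gene by gene, 9 of the ES cell markers were above control in KD-1 and 3 below, and in KD-2 9 were below and 3 above. Past the fold in the higher direction was 1 in each, Utf1 (0.69 and 1.17 on the log2 scale), where 8.63% and 17.1% of all tested genes were. In the lower direction in KD-2 3 were past it, Zfp42, Dppa4 and Tdgf1 (-0.70, -0.67 and -0.61), where 10.2% of all tested genes were. The part of the markers' differences in the values of the Zfp genes was not tested.

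In control ES cells most of the genes were expressed. In RPKM, which are reads per exon length and per library total, 30 of 33 genes were above 1 in control, and the median was 4.80, compared to 2.45 over all tested genes. The medians in KD-1 and KD-2 were 4.49 and 4.02. Zfp936, with 11 C2H2 motifs and at chr7:43114229-43192109, had the highest level, with 34.3 RPKM in the control library, 46.2 for KD-1 and 26.8 for KD-2. Zfp958 followed with 22.1, 24.3 and 18.1 RPKM, and Zfp961 with 21.4, 26.5 and 19.1 RPKM. In each of these genes KD-1 was the highest library and KD-2 the lowest. Zfp932 had 17.1 RPKM in the control library, 19.0 for KD-1 and 13.3 for KD-2, Zfp935 had 14.7, 17.2 and 12.7, and Zfp930 had 13.2, 13.5 and 9.05. The order of KD-1, control and KD-2 was the same in these genes. Zfp941, Zfp944, Zfp951 and Zfp934 completed the 10 highest genes in control, with 9.21, 8.82, 7.48 and 7.40 RPKM. Some reads of Zfp961 may come from Cyp4f18, which overlaps it on the opposite strand, and Zfp934 and Zfp935 overlap each other on the same strand. Since there was 1 library, neighbours in the order of levels cannot be compared with a spread.

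**Figure D1:**
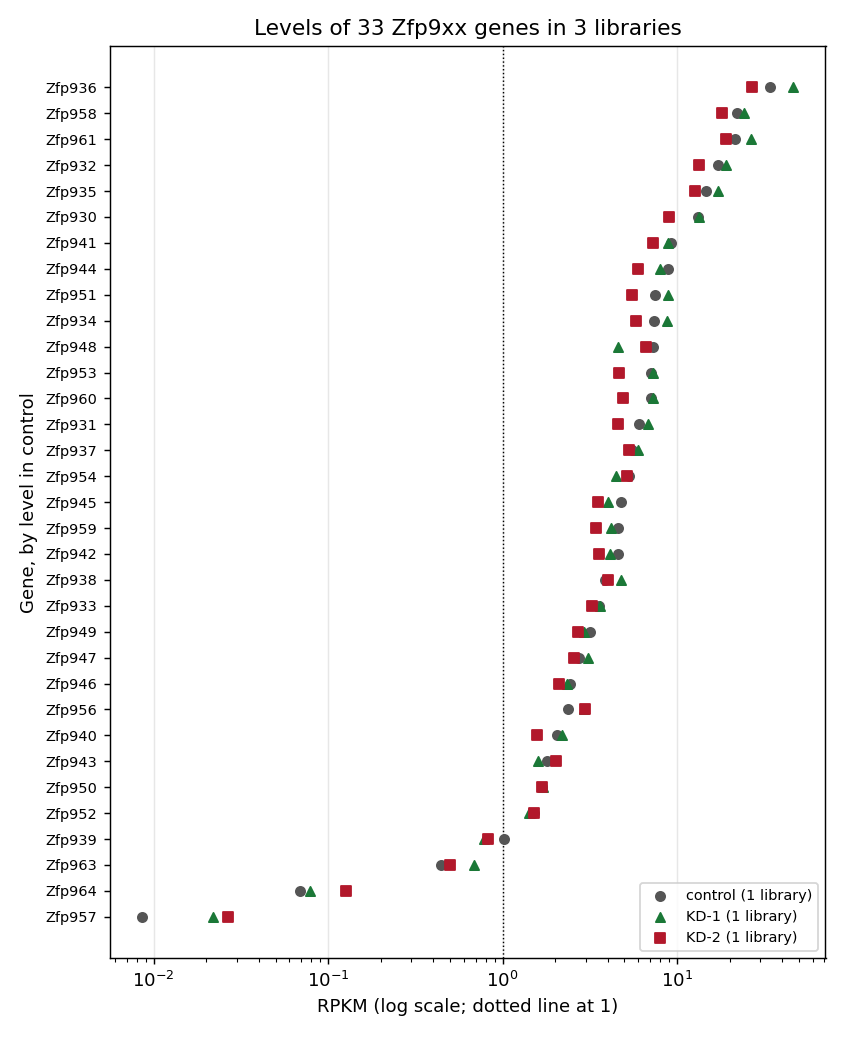
Level of each of the 33 genes in RPKM on a log axis, ordered by control, with 1 point per library. Zfp936 stands at the top in all 3 libraries and 30 genes lie above 1 RPKM in control.

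Of the remaining genes, 3 were at or near the limit of detection. Zfp957, which has neither the KRAB pattern nor C2H2 motifs in its annotated protein, had 2 reads in control and 6 in each knockdown. With a mean under 10 reads it was the only member left out of the counts below. On the log2 scale it was at 1.18 (interval -1.13 to 4.70) for KD-1 and 1.29 (-1.01 to 4.82) for KD-2, and no difference was detectable at this depth. Zfp964 was read 38, 51 and 67 times in control, KD-1 and KD-2, and Zfp963 74, 135 and 80 times. These genes, neighbours among the members at chr8:69654479-69666982 and chr8:69741639-69749970, were thus highest in different knockdown libraries.

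The first question was which of the genes differ between KD-1 and control. Of 32 tested genes, 20 were above control and 12 below (53.1% and 46.9% of all tested genes), with a median log2 fold change of 0.05, compared to 0.02 over all tested genes. Past the fold was 1 gene in the higher direction, Zfp963, and 1 in the lower direction, Zfp948, where 8.63% and 5.62% of all tested genes were past the fold. With the size factors of DESeq2 15 genes were above control and 17 below, and the median was -0.02 (-0.05 over all tested genes). Zfp963 was then not past the fold, so that 0 genes were higher. By the counting interval, 13 of 32 genes were above control and 6 below, and of all tested genes 28.3% were above and 26.7% below.

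Zfp948, which has 15 C2H2 motifs and shares 0.1% of its 50-base windows with other genes, had 1395 reads in the control library, 1035 for KD-1 and 1230 for KD-2. It was the only member past the fold in the lower direction in KD-1, with -0.66 on the log2 scale (interval -0.78 to -0.54), and for KD-2 it was at -0.29 (-0.40 to -0.18). Zfp963 was at 0.64 (0.22 to 1.07) in KD-1 and 0.01 (-0.47 to 0.48) in KD-2. The wide intervals of Zfp963 come with its low reads.

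Among the genes with many reads, Zfp936 had the highest value in KD-1. It was read 8122 times in the control library, 12893 times for KD-1 and 6137 times for KD-2, and stood at 0.44 (0.40 to 0.48) on the log2 scale for KD-1. Next came Zfp956 with 507, 743 and 618 reads and 0.32 (0.16 to 0.49), and Zfp961 with 6697, 9787 and 5775 reads and 0.32 (0.27 to 0.36). Zfp956 overlaps Zfp783 on the same strand, and reads of the pair may not be separated. Zfp938 (594, 862 and 597 reads) was at 0.31 in KD-1, and Zfp951, Zfp934 and Zfp935 were at 0.26, 0.24 and 0.23. In the lower direction, Zfp939, the pseudogene, had 184, 165 and 143 reads and a log2 fold change of -0.38 (-0.70 to -0.07). Zfp945 was at -0.25, Zfp954 at -0.23 (919, 917 and 861 reads), Zfp943 at -0.16, and Zfp942, Zfp944 and Zfp959 at -0.14 each. None of these values, from 0.44 to -0.38, was past the fold.

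In KD-2 most of the genes stood below control. Of 32 genes, 28 were below control and 4 above, where 51.7% of all tested genes were below and 48.3% above, and the median log2 fold change was -0.42, compared to -0.02 over all tested genes. Past the fold were 6 genes in the lower direction, Zfp953, Zfp944, Zfp930, Zfp960, Zfp951 and Zfp945 (18.8% of the members, compared to 10.2% of all tested genes), and 1 gene in the higher direction, Zfp964 (17.1% of all). The 6 lay between -0.77 and -0.60. After scaling by library totals 1 of them, Zfp953, was past the fold and the median was -0.26, while that of all tested genes was 0.14. With centring by GC content, described below, 0 members were past the fold in the lower direction and the median was -0.20, and among 2290 other genes of like GC content 1616 were below control. By counting, the interval lay below control in 26 of 32 genes and above it in 2, and of all tested genes it lay below in 36.4% and above in 31.5%.

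Zfp953, with 9 C2H2 motifs and 0.7% of shared windows, had 2403 reads in the control library, 2915 for KD-1 and 1513 for KD-2. Its log2 fold change of -0.77 (-0.87 to -0.68) in KD-2 was the lowest, while in KD-1 it was 0.05 (-0.03 to 0.13). Zfp944 had 1777, 1888 and 1158 reads, which is -0.72 (-0.83 to -0.62) for KD-2 and -0.14 for KD-1 on the log2 scale. KD-2 was thus the lowest library in reads and in scaled reads for both genes.

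Zfp930, with 12 C2H2 motifs, was read 4970, 5983 and 3296 times, and stood at 0.04 (-0.02 to 0.09) for KD-1 and -0.70 (-0.76 to -0.64) for KD-2 on the log2 scale. Zfp960 had 1369, 1656 and 917 reads, and was at 0.05 (-0.06 to 0.15) in KD-1 and -0.68 (-0.81 to -0.56) in KD-2. Its close copy Zfp97 had 1260, 1602 and 887 reads and was at 0.12 and -0.61, so that the pair, which the reads separate poorly, had like values. Zfp951 had 2559, 3595 and 1824 reads and a log2 fold change of -0.60 (-0.68 to -0.51) in KD-2. Zfp945, the gene with the most C2H2 motifs, had 3531, 3486 and 2517 reads, with -0.60 (-0.67 to -0.52) in KD-2. Of the 6 genes, Zfp945 and Zfp944 were below control in KD-1 too and Zfp951 was above it, at 0.26 (0.19 to 0.34). Zfp930, Zfp953 and Zfp960 were within the counting error of control in KD-1, and with the size factors of DESeq2 they stood at -0.03, -0.02 and -0.02.

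Just short of the fold were Zfp959 (816, 870 and 589 reads), at -0.58 (-0.73 to -0.42), and Zfp931 (1008, 1338 and 738 reads), at -0.56 (-0.70 to -0.42). Zfp940 was at -0.55, Zfp942 and Zfp932 at -0.52, Zfp936 at -0.51, Zfp934 at -0.50 and Zfp941 at -0.49. The values of the members therefore formed a continuous range without a gap at the threshold. For Zfp932, the reads were 4046 in the control library, 5299 for KD-1 and 3037 for KD-2, and for its paralogue Gm15446 they were 253, 336 and 199, with log2 fold changes in KD-2 of -0.52 and -0.45.

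Above control in KD-2 were Zfp964, at 0.70 (0.12 to 1.33), Zfp956, at 0.18 (0.01 to 0.35), Zfp943, at 0.01 (-0.14 to 0.17), and Zfp963, at 0.01. Zfp943 had 624 reads in the control library, 655 for KD-1 and 679 for KD-2. Its neighbour Zfp942, which starts 94 bases from it on the other strand, had 1741, 1846 and 1306 reads. The log2 fold changes of this pair in KD-2 were 0.01 and -0.52, with intervals that do not overlap. Zfp944, which carries the run of bases printed above next to its start, was at -0.72, and Zfp758 on its other side had 1043, 1639 and 843 reads and was at -0.41.

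**Figure D2:**
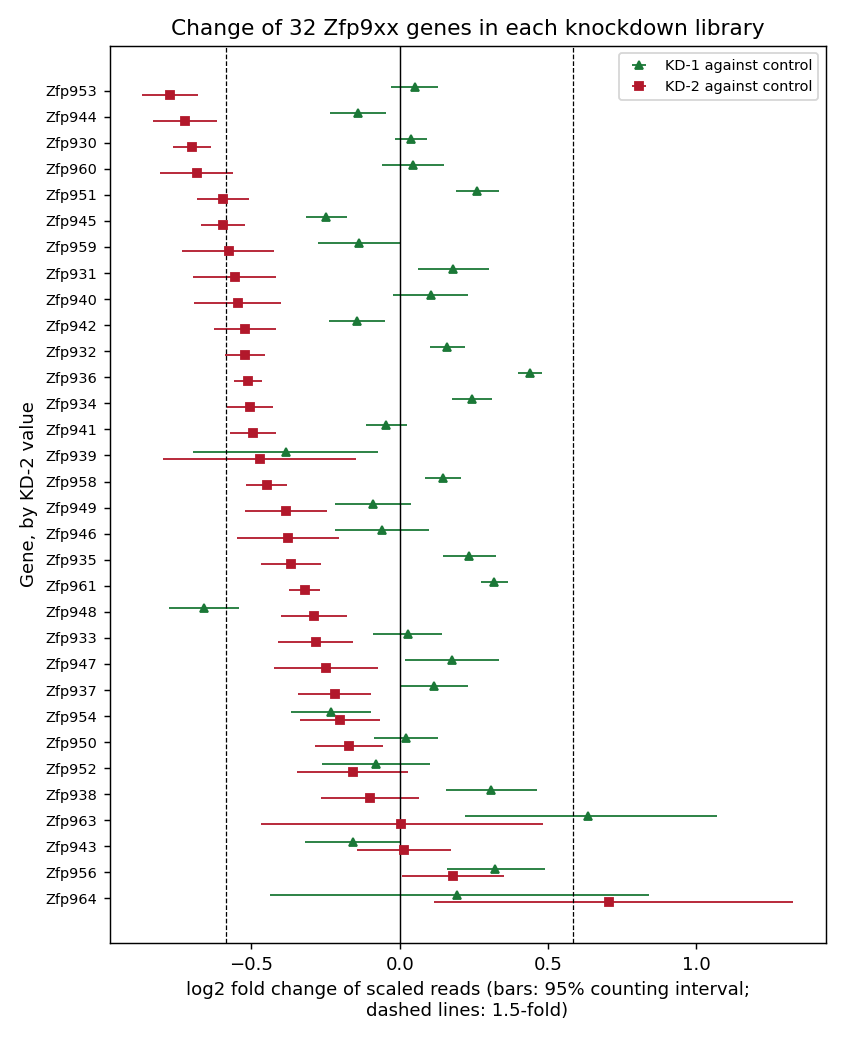
Log2 fold change of scaled reads of the 32 tested genes in KD-1 (triangles) and KD-2 (squares) against the same control library, with 95% counting intervals as bars and dashed lines at a fold change of 1.5. Of the KD-2 points 28 lie below 0, and of the KD-1 points 20 lie above 0.

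The knockdown libraries share the control library, so their fold changes are given side by side. In 17 of the 32 genes (24.7% of all tested genes) the value was above control in KD-1 and below it in KD-2 (12 genes with the size factors of DESeq2), in 11 it was below in both, in 3 above in both and in 1 below in KD-1 and above in KD-2. No gene was past the fold in the same direction in both knockdowns, where 3.64% of all tested genes were higher and 0.99% lower in both. Likewise 0 genes were past it in opposite directions (2.4% of all). At a fold change above 2, 0 members remained in either direction in KD-1 (3.09% of all tested genes higher and 1.53% lower), in KD-2 (5.42% and 1.85%) or in KD-1 compared to KD-2 (3.14% and 7.89%).

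When KD-1 was compared to KD-2 directly, without the control library, 28 genes were higher in KD-1 and 4 lower (58.9% and 41.1% of all), and the median log2 fold change was 0.43, compared to 0.12 over all tested genes. Past the fold were 13 genes in the higher direction (40.6% of the members, compared to 13.9% of all) and 0 in the lower direction (16.1% of all). The highest were Zfp936, at 0.95 (0.91 to 0.99), Zfp951, at 0.86 (0.78 to 0.94), and Zfp953, at 0.82 (0.73 to 0.92). Zfp934 was at 0.75, Zfp930, Zfp931 and Zfp960 at 0.74, 0.74 and 0.73, and Zfp932 at 0.68. In the same direction and past the fold were Zfp940, Zfp961, Zfp963, Zfp935 and Zfp958, from 0.65 to 0.59. Lower in KD-1 in this comparison were Zfp964, at -0.51 (-1.07 to 0.03), Zfp948, at -0.37 (-0.49 to -0.25), Zfp943, at -0.17, and Zfp954, at -0.03. Of the 13 genes 7 were past the fold with the size factors of DESeq2, where 1 gene was lower, and 3 with library totals, where 1 was lower. The members' medians under these scalings were 0.33 and 0.27, compared to 0.02 and -0.04 over all tested genes. With centring by GC content 1 gene was higher and 2 were lower, and the median was 0.12, while without it 19.4% of the other genes of like GC content were past the fold in the higher direction.

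When the knockdowns were pooled as 1 group and set against control, the quasi-likelihood test of edgeR had 1 residual degree of freedom, and its spread came from the difference between KD-1 and KD-2 alone. At an FDR of 0.05 it called 4 of 16670 genes (0.024%) and 0 of the 32 members. At an unadjusted p under 0.05 were 246 of all tested genes (1.48%) and 0 members. The lowest p of a member in edgeR's test was 0.337, for Zfp948, with an FDR of 1.00. The DESeq2 Wald test called 2 genes (0.012%), edgeR with TMM 0 (0.0%), and edgeR without a filter 2 of 21164 (0.00945%), with 0 members among them.

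By position, in KD-1 8 of the 10 genes on chromosome 17 were below control (46.9% of all tested genes), with a median log2 fold change of -0.14, while all 5 genes on chromosome 8 and all 3 on chromosome 13 were above it, with medians of 0.19 and 0.23. Among these, Zfp930 and Zfp964 on chromosome 8 and Zfp953 on chromosome 13 had intervals that include 0, as did Zfp943, Zfp946, Zfp952 and Zfp959 of the genes below control on chromosome 17. With the size factors of DESeq2 Zfp930 and Zfp953 were below control, at -0.03 and -0.02. Of the 5 genes on chromosome 7, 2 were above control and 3 below, with a median of -0.05. In KD-2 the medians were -0.45 on chromosome 17, -0.32 on chromosome 8, -0.50 on chromosome 13 and -0.49 on chromosome 7, while Zfp956, the only member on chromosome 6, was at 0.18. The 7 genes of the cluster on chromosome 17 had medians of -0.14 (KD-1) and -0.38 (KD-2). These groups are small, they hold duplicated genes, and the differences between chromosomes were not tested. By number of fingers, the 21 genes with 10 or more C2H2 motifs had a median of -0.49 in KD-2 and the 10 genes with fewer a median of -0.22, and in KD-1 these medians were 0.04 and 0.18. The median GC content of these groups was 38.1% and 40.9%, with centring their medians in KD-2 were -0.23 and -0.03, and the difference between them was not tested.

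The genes were also split by shared sequence. In the 12 genes that share 5% or more of their 50-base windows the median log2 fold change in KD-2 was -0.52, all 12 were below control and 2, Zfp944 and Zfp960, were past the fold in the lower direction (10.2% of all tested genes). The 20 tested genes under 5% had a median of -0.30, and 16 of them were below control, 4 were past the fold in the lower direction and 1, Zfp964, in the higher direction (17.1% of all). In the comparison of KD-1 to KD-2, 7 of these 20 genes were past the fold in the higher direction (13.9% of all). In KD-1 the medians were 0.14 at 5% or more and 0.03 under 5%. The median GC content of these groups was 38.2% and 40.9%, and after subtraction of the median by GC content, as described below, their medians in KD-2 were -0.24 and -0.09. The difference between the groups was not tested.

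The transcripts of these genes are poor in G and C. The median GC content of the 32 tested genes was 38.6%, from 33.2% in Zfp931 to 53.9% in Zfp956, while the median of all tested genes was 49.7%. Of the members, 30 lay below that median, and 22 were in the lowest decile of all genes. In KD-2 the fold changes of all tested genes followed GC content, with a median of -0.28 in the lowest decile and 0.43 in the highest. In KD-1 these medians were -0.03 and 0.10. Among 2290 other genes with a GC content from 37.1 to 42.7%, the range of the middle of the members, the median in KD-2 was -0.26, and 415 (18.1%) were past the fold in the lower direction. After the median of the genes in the same decile of GC content was subtracted, the members' median in KD-2 was -0.20, 23 of 32 were below 0 (50% of all tested genes, by construction), and 0 were past the fold in the lower direction (7.53% of all). In KD-1 compared to KD-2 the median was then 0.12, and 1 gene, Zfp936, was past the fold in the higher direction (8.65% of all) and 2, Zfp948 and Zfp964, in the lower direction (18.6% of all). The share of members past the fold in the lower direction in KD-2 was 18.8%. Below control in KD-2 were 28 of 32 members and 1616 of the 2290 other genes. Between KD-1 and KD-2, 40.6% of the members and 19.4% of the other genes were past the fold, higher in KD-1. These differences between the lists were not tested, and what sets the relation to GC content was not tested.

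Other zinc finger genes were compared in the same way. The 296 tested genes with other Zfp numbers had medians of 0.06 (KD-1) and -0.23 (KD-2) on the log2 scale, with 16 genes higher and 1 lower in KD-1 and 26 higher and 40 lower in KD-2 past the fold. These are 5.41% and 0.338% of the list in KD-1, compared to 8.63% and 5.62% of all tested genes, and 8.78% and 13.5% in KD-2, compared to 17.1% and 10.2%. For KD-1 set against KD-2 their median was 0.31, with 53 genes higher (17.9%, compared to 13.9% of all) and 15 lower (5.07%, compared to 16.1%). Of these 296 genes 213 were below control in KD-2. With no test of the difference between the lists, the lower median of the Zfp930 to Zfp964 genes in KD-2 is a description, and after subtraction of the median by GC content the medians were -0.08 in the other genes and -0.20 in the members. Among 11 well-studied KRAB zinc finger genes, Zfp57, which keeps imprints, had 5227 reads in the control library, 10109 for KD-1 and 4836 for KD-2. It was past the fold in KD-1, at 0.72, and was at -0.22 in KD-2. In KD-2, Zfp819 and Zfp708 were past the fold in the lower direction, at -0.79 and -0.67 (10.2% of all tested genes). Zfp689 was past it in the higher direction, at 0.79 (17.1% of all). Of the 11 genes 9 were above control in KD-1 (53.1% of all) and 9 below it in KD-2 (51.7% of all). Their medians were 0.18 and -0.29, and with centring by GC content the median in KD-2 was -0.12.

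The partners through which KRAB zinc finger proteins act were read in all libraries. Trim28, the corepressor bound by the KRAB domain, had 46090 reads in the control library, 59177 for KD-1 and 40541 for KD-2, with log2 fold changes of 0.13 and -0.29. Setdb1, which methylates lysine of histone H3 at their targets, had 3960, 6581 and 3082 reads, with 0.50 in KD-1 and -0.47 in KD-2. Both were highest in KD-1 and lowest in KD-2, the order seen in 17 of the 32 members and in 24.7% of all tested genes. Below control were 17 of the 34 tested partner genes for KD-1 (46.9% of all) and 30 for KD-2 (51.7% of all). The medians were 0.01 and -0.45. Past the fold in KD-1 was 1 gene, Sumo2, in the lower direction, at -0.62 (5.62% of all tested genes lower and 8.63% higher). In KD-2 0 were past it in the higher direction (17.1% of all) and 8 in the lower direction (10.2% of all), which were Cbx3 and Cbx5, coding for HP1 proteins, Fam208a of the HUSH complex, the DNA methyltransferase gene Dnmt3b, Suv39h2, Hells, Smarcad1 and Rif1. The lowest were Fam208a, with 16659, 16753 and 9589 reads and -0.90, and Cbx5, with 29091, 32624 and 17855 reads and -0.81. The median GC content of the partner genes was 49.8%, near that of all genes, and after subtraction of the median by GC content their median in KD-2 was -0.33.

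**Figure D3:**
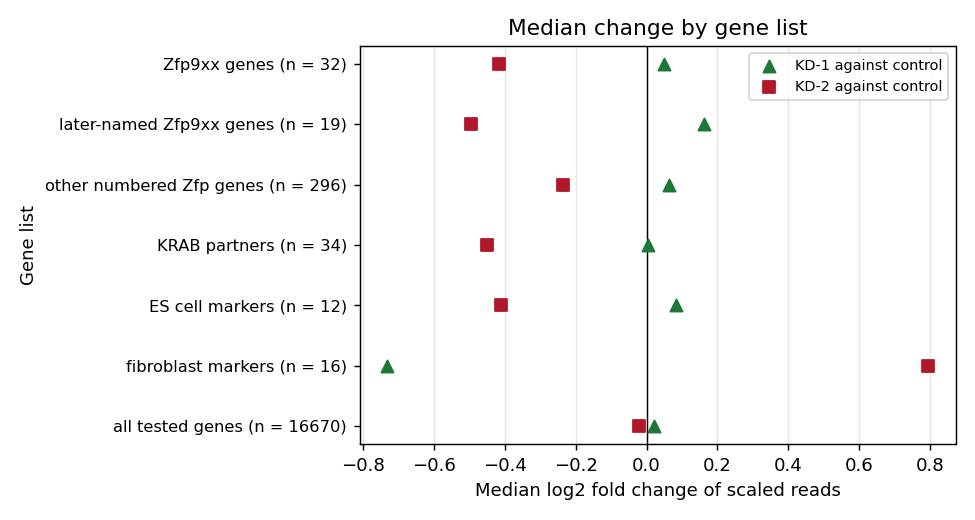
Median log2 fold change of scaled reads in KD-1 (triangles) and KD-2 (squares) against control for each gene list, with the number of tested genes. The Zfp9xx genes stand at 0.05 and -0.42, the ES cell markers at 0.08 and -0.41 (KD-2 medians of -0.20 and -0.44 with centring by GC content), and the fibroblast markers at -0.73 and 0.80.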

How the data were processed

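Total RNA depleted of ribosomal RNA was sequenced as single-end reads of 50 bases. Per the labels, the authors trimmed reads with Trim Galore 0.4.1, mapped them with TopHat2 2.1.1 to mm10 (GRCm38) and deposited raw counts of reads per gene, without normalization. The processing notes name HTSeq and the paper's methods featureCounts for counting, and the strand setting is not given in the sources used here. Lines without a gene, left out here, held 21.8%, 24.1% and 21.5% (no feature) and 1.65%, 1.53% and 1.45% (ambiguous) of the total in control, KD-1 and KD-2.

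Reads were scaled by upper quartile, and fold changes used a pseudocount of 0.5 reads and a minimum mean of 10 reads. Precision is given by exact 95% intervals of ratios, which cover counting error only. RPKM used GENCODE M21 exon lengths and reads on genes. With 1 library per condition the single comparisons have no test. Both knockdowns were compared to control with edgeR 4.0.16 (R 4.3.3) and with DESeq2 1.42.0. GC content was taken from the longest transcript of each gene. Shared 50-base windows were taken from its longest protein-coding transcript, or the longest of any kind where none is coding. Protein motifs were taken from the coding model with the most C2H2 motifs, and promoters from RefSeq. Python 3.11.15, pandas 2.3.3, numpy 2.4.6, scipy 1.17.1 and matplotlib 3.10.9 were used.

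The members and all gene lists were chosen with earlier results of these data known. Named with values were the 10 genes highest in RPKM in control, those past the fold, and the 8 with the largest fold in each direction and comparison. Other genes, such as neighbours and copies, were named after their values were seen. Alternatives were TMM, DESeq2 size factors, library totals, no filter, a minimum mean of 50 reads, a pseudocount of 5 reads and a fold change above 2. Centring by decile of GC content and the restriction to genes under 5% of shared windows were added after the data were seen.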

Additional observations from a re-analysis of the deposited data

How the results depend on the processing

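With 1 library per condition, nothing here measures the spread between cultures, and feeder content, GC content and knockdown cannot be told apart. Counts of members past the fold depended on scaling. With DESeq2 size factors 0 genes were higher in KD-1, and between KD-1 and KD-2 7 were higher in KD-1 and 1 lower. The median of all tested genes between KD-1 and KD-2 then shifted from 0.12 to 0.02. With library totals 1 member was past the fold downward in KD-2, and the members' median was -0.26. That of all tested genes in KD-2 shifted from -0.02 to 0.14. Between KD-1 and KD-2 3 members were then higher in KD-1 and 1 lower, with a median of 0.27. That of all tested genes in this comparison shifted from 0.12 to -0.04. Without a filter on low counts, Zfp957 (2, 6 and 6 reads) brought the counts to 2 higher in KD-1, 2 higher in KD-2 and 1 past the fold in the same direction in both. At a fold change above 2 the counts were 0 in each direction of each comparison. With centring by GC content 0 members were past the fold downward in KD-2, the median was -0.20, and between KD-1 and KD-2 1 was higher in KD-1 and 2 lower, with a median of 0.12. Among members under 5% of shared windows 7 were higher in KD-1 compared to KD-2. A change of scaling moves the log2 fold changes of all genes in a comparison by nearly the same amount. What makes the scale factors differ was not tested. With TMM 4 members were lower in KD-2, and the median in KD-2 stayed below 0 under each of the alternatives run, from -0.42 to -0.20. No paired analysis was possible because each condition has a single library, with no second replicate number to pair.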

Other observations

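RefSeq holds 29 further symbols from Zfp900 to Zfp999 that do not appear in the deposited counts, and 22 of them have an older symbol there, of which 19 genes were tested. None of these 19 genes entered the counts of members in the report. Their median GC content was 38.0%, and their median log2 fold changes were 0.16 (KD-1) and -0.49 (KD-2). Past the fold were 0 genes in KD-1 (8.63% of all tested genes higher and 5.62% lower), 7 in the lower direction in KD-2 (10.2% of all) and 11 in the higher direction in KD-1 compared to KD-2 (13.9% of all), where the median was 0.74. With centring by GC content the medians were -0.22 (KD-2) and 0.43 (KD-1 compared to KD-2). Gm13139, now Zfp991, stood far below the others in KD-2, with 324 (control), 284 (KD-1) and 40 (KD-2) reads. On the log2 scale it was at -0.42 (interval -0.65 to -0.18) in KD-1 and -3.11 (-3.64 to -2.65) in KD-2. There is no replicate of either library, and the value is a description of these libraries, chosen after it was seen.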
